A study of Mus musculus with 8 samples.

Results

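A set of 10 genes of the immediate early response and the AP-1 transcription factor was followed in RNA of the embryonic mouse cerebral cortex, in 4 Taf8 wild-type and 4 Taf8-deleted embryos. The members were chosen by symbol: the Fos family genes Fos, Fosb and Fosl2, the Jun family genes Jun and Junb, the zinc finger genes Egr1 and Egr3, and the genes Arc, Ier2 and Dusp1. This choice was made with earlier results of these data known. All 10 were found by Entrez number among the 27179 genes of the count table, and 9 of them passed the filter on low counts. Fosb did not pass it. The labels give the wild-type embryos as Taf8 +/+ and the deleted embryos as Taf8 -/lox, so both alleles of the first are intact and the second carry a null and a lox allele. The sources used here do not name the Cre driver, the embryonic day or the strain. The Taf8 protein is part of TFIID, a general transcription factor that recognises core promoters ahead of RNA polymerase II.

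Immediate early genes are transcribed within minutes of a stimulus, such as a growth factor or calcium entering an active neuron, without the need for new protein. MAP kinases and calcium act on factors already bound at their promoters, among them SRF with its ELK partners and CREB, and the resulting mRNAs are short-lived. Fos and Jun proteins then pair as AP-1 and bind DNA, EGR proteins bind GC-rich sites, Arc acts at synapses, and Dusp1 switches the MAP kinases off again.

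Libraries were made from single embryos and held 26312505 to 65523487 counts in genes. A floor of 3 counts was 0.0458 to 0.114 CPM (the count relative to library size), which reflects counting error alone. Taf8 itself was at 34.8 ± 2.75 CPM (SD, n = 4) in wild-type and 0.643 ± 0.149 CPM (SD, n = 4) in deleted cortex. Wild-type replicate 3, the deepest library, stood apart from the other wild-type libraries. Its chi-square per degree of freedom was 22.1 to 27.0 against them, beside 4.79 to 6.98 among them. Between pairs of deleted libraries this value was 3.56 to 15.5. It was taken on raw counts and grows with depth where libraries differ, and the part of depth in it was not tested. Animal numbers of wild-type replicates 1 to 3 share their first part (408.4, 408.5 and 408.6) and no first part occurs in both groups, so a litter or batch it may mark cannot be told apart from genotype. The tissue markers were present in every library, with none of 8 markers of cortical excitatory neurons at 0.

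Of the 9 tested members, 7 were called as higher in Taf8-deleted cortex, 1 as lower, and the change of 1 missed the threshold. Egr1 rose 3.78-fold, Arc 2.07-fold, Ier2 2.03-fold and Fos 2.03-fold, and Fosl2 was 3.00-fold lower. Jun rose 1.44-fold and Egr3 1.32-fold, and Dusp1 rose by 0.27 on the log2 scale. All calls use edgeR's quasi-likelihood F-test at an adjusted p of 0.05, where Benjamini-Hochberg adjustment covers the 15649 tested genes. Changes were common in these samples: 59.2% of all genes tested were called, with 29.5% of all genes tested called as higher and 29.6% as lower. A rise of at least 2-fold was seen in 4 members and in 5.48% of all genes tested, and a fall of at least 2-fold in 1 member and in 3.09% of all genes. The groups did not overlap in 8 of the 9 tested members and in 53.6% of all genes tested. In 7 of these members every deleted library was the higher, as in 26.6% of all genes, and in 1 the lower, as in 27.0%. The members' median log2 fold change was 0.52, and that of all genes was 0.01. Because the members were chosen with earlier results of these data known, these shares and medians describe them and are not a test.

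**Figure D1:**
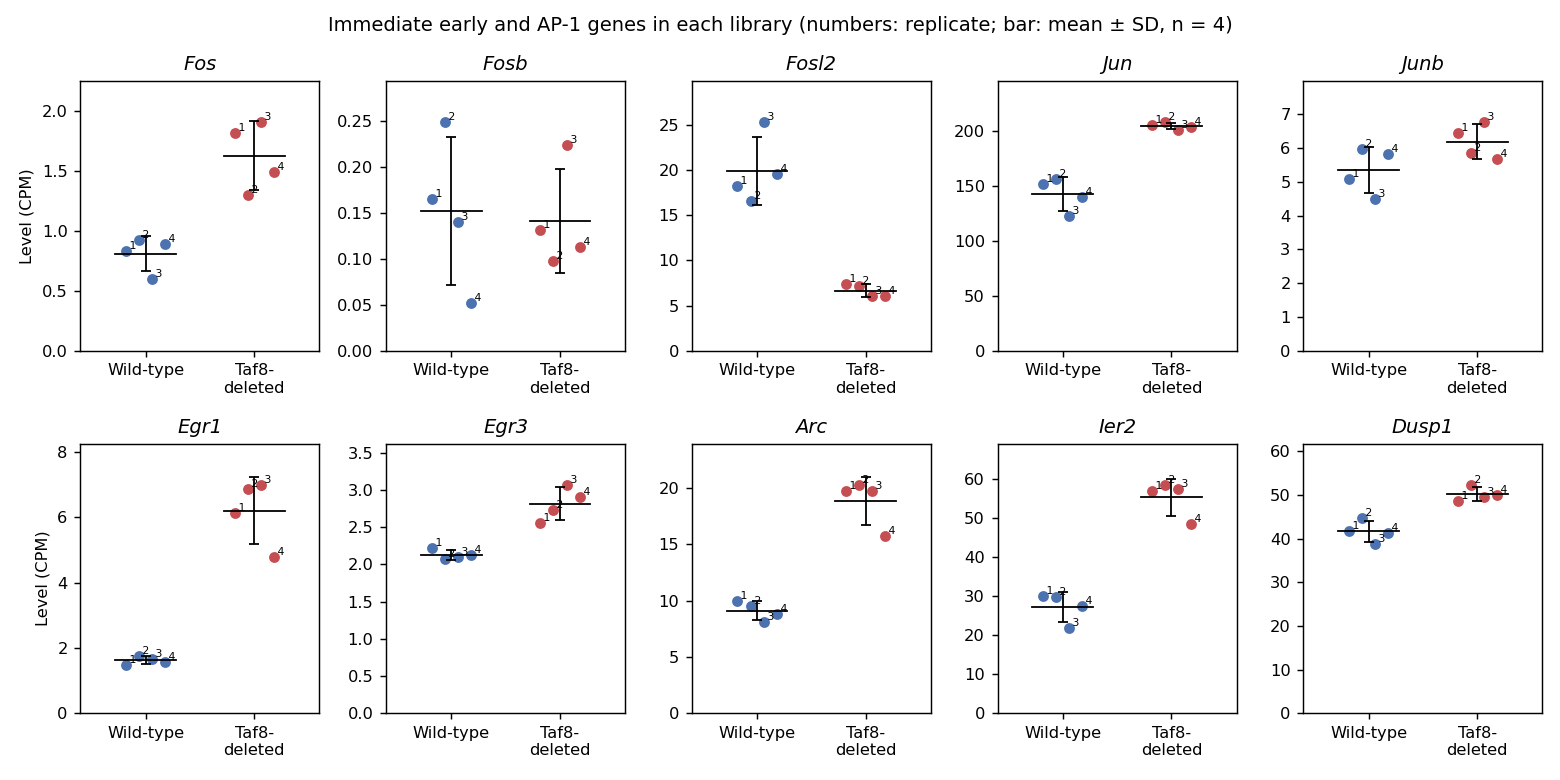
Level in CPM of each of the 10 genes in the 4 wild-type (blue) and 4 Taf8-deleted (red) libraries, with the replicate number beside each point and mean ± SD as bars. Fos, Jun, Egr1, Egr3, Arc, Ier2 and Dusp1 were higher in all 4 deleted libraries, Fosl2 was lower in all 4, and Fosb and Junb overlapped between groups.

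**Figure D2:**
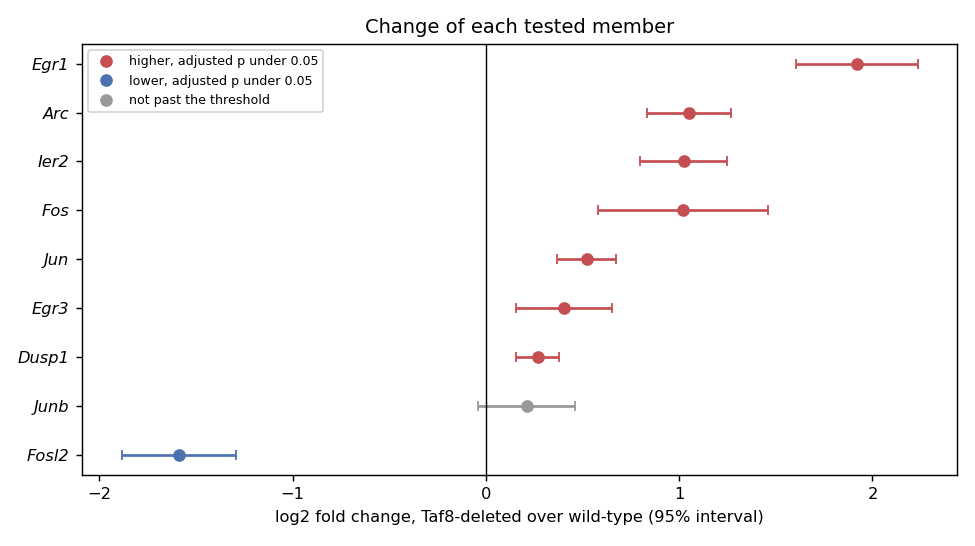
Log2 fold change (Taf8-deleted over wild-type) of the 9 tested members with its 95% interval from edgeR's quasi-likelihood fit. Egr1 lies highest at 1.92 and Fosl2 lowest at -1.59, and the interval of Junb includes 0.

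Sequence before the transcription start is shown for 3 members whose changes differ. These are Fos, which rose 2.03-fold, Fosl2 of the same family, which fell, and Dusp1, which rose least among the members called as higher. Each is the 250 bases upstream of the RefSeq start (GRCm38.p6, 5′ to 3′ in the direction of the gene), at chr12:85473640-85473889 on the plus strand for Fos, chr5:32136222-32136471 on the plus strand for Fosl2 and chr17:26508473-26508722 on the minus strand for Dusp1. Capitals mark every match to the motifs named after the sequences.
Fos: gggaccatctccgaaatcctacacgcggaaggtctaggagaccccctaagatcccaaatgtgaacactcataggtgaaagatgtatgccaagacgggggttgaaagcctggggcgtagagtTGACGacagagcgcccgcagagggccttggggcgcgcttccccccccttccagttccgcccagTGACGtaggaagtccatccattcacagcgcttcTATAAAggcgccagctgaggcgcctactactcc
Fosl2: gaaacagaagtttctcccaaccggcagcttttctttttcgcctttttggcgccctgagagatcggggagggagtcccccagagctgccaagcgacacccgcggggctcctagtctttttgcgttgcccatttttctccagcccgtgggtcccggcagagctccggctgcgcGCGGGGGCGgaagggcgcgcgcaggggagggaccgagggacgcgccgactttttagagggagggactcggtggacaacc
Dusp1: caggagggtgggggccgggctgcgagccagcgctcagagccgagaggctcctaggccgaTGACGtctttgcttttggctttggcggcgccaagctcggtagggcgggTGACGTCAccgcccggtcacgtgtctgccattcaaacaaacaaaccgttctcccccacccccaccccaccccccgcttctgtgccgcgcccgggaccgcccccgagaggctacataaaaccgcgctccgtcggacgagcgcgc

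The motifs searched, on both strands, were the TATA box (TATAAA), the core of the cAMP response element bound by CREB (TGACG), its full form (TGACGTCA, which holds the core on both strands), the AP-1 site (TGACTCA), the CArG box bound by SRF, and the EGR site (GCGGGGGCG). The Fos sequence holds a TATA box that begins at position -33 from the start and CRE cores that begin at -129 and -66. Fosl2 holds an EGR site that begins at -79 and no match to the others. Dusp1 holds a full CRE that begins at -143 and another CRE core at -191. Egr1 was left out of the motif search, and sequences of 6 of the 10 members were searched. Of the other 3 sequences searched, Fosb holds a CRE core at -60 and an EGR site at -50, Junb holds a CRE core at -106, and Jun holds no match. The Fosb window, chr7:19310046-19310295 on the minus strand, overlaps the gene's span, which runs to 19310118. Its positions count from the RefSeq start at the edge of that window. Among 32851 RefSeq promoters of the same length, 12.4% hold a TATA box, 17.8% a CRE core, 1.55% a full CRE, 4.46% an AP-1 site, 1.47% a CArG box and 2.57% an EGR site. A match describes letters in this window and is not a measured binding site.

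Fos (Entrez gene 14281, chromosome 12, 85473890 to 85477274, mm10) encodes the classic partner of Jun in AP-1 and is a standard marker of recently active neurons. Its level was 0.83, 0.92, 0.59 and 0.89 CPM in wild-type replicates 1 to 4 and 1.82, 1.30, 1.91 and 1.49 CPM in deleted replicates 1 to 4. All 4 deleted libraries lay above all 4 wild-type libraries. The log2 fold change was 1.02 (SE 0.20, adjusted p = 0.00126 by edgeR's quasi-likelihood test). These levels rest on 25 to 38 counts per wild-type library and 40 to 79 per deleted library, so Fos was sampled thinly in both groups.

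Fosb (chromosome 7, 19302696 to 19310118), a Fos relative that also pairs with Jun proteins, had 2 to 10 counts per wild-type library and 3 to 6 per deleted library. Its level was 0.152 ± 0.0809 CPM (SD, n = 4) in wild-type and 0.142 ± 0.0569 CPM (SD, n = 4) in deleted cortex, close to the level of 3 counts. With no filter on low counts its log2 fold change was -0.15 (SE 0.48) in a fit over 21129 genes and did not pass the test. A change of Fosb was not detectable at this depth.

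Fosl2 (chromosome 5, 32136472 to 32157840) encodes another Fos family partner of Jun, and it was the member that moved the other way. Its level was 18.28, 16.57, 25.31 and 19.52 CPM in wild-type replicates 1 to 4. In deleted replicates 1 to 4 it was 7.36, 7.17, 6.06 and 6.04 CPM. The lowest wild-type library was over the highest deleted library by a wide margin, and wild-type replicate 3 stood highest. Its log2 fold change was -1.59 (SE 0.13, adjusted p = 3.84e-06 by edgeR), and each of 24 alternatives kept the call, with values of -1.68 to -1.41.

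Jun (chromosome 4, 95049036 to 95052222), the DNA-binding partner of Fos proteins in AP-1, was the most abundant member. Its level was 152, 156, 123 and 139 CPM in wild-type replicates 1 to 4 and 205, 208, 201 and 204 CPM in deleted replicates 1 to 4. The groups did not overlap, and the deleted libraries lay closer to each other than the wild-type libraries did, with a coefficient of variation of 1.38% against 10.6%. The log2 fold change was 0.52 (SE 0.07, adjusted p = 8.3e-05 by edgeR).

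Junb (chromosome 8, 84976909 to 84978748), a Jun relative that often acts as a weaker activator, was at 5.08, 5.98, 4.50 and 5.83 CPM in wild-type replicates 1 to 4. In deleted replicates 1 to 4 it was at 6.46, 5.84, 6.77 and 5.68 CPM, so that the groups overlapped. This gave a log2 fold change of 0.21 with a 95% interval of -0.04 to 0.46 (adjusted p = 0.131 by edgeR). A rise as large as that of Arc or Fos lies outside this interval.

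Levels of different genes were compared per length, as CPM per kilobase of counted gene length (RPKM). Summed over the 7 Fos and Jun family genes, with Fosl1 and Jund added to the 5 members, the level was 137 ± 12.9 RPKM (SD, n = 4) in wild-type and 210.4 ± 11.1 RPKM (SD, n = 4) in deleted cortex. Jund made up 62.3% ± 1.17 of that sum in wild-type and 66.9% ± 1.71 in deleted cortex (SD, n = 4). Jun made up 32.7% ± 1.12 and 30.5% ± 1.5. Fos family genes were a small share: Fosl2 held 2.54% ± 0.773 in wild-type and 0.541% ± 0.0651 in deleted cortex, and Fos held 0.281% ± 0.0304 and 0.372% ± 0.0769. The share of Fos overlapped between the groups, at 0.242% to 0.305% in wild-type and 0.276% to 0.437% in deleted libraries. By this sum most Fos and Jun family RNA came from Jun family genes in every library.

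A ratio of members within a library does not depend on how libraries are scaled. Fosl2 per Fos, in RPKM, was 7.87, 6.41, 15.2 and 7.80 in wild-type replicates 1 to 4 and 1.44, 1.97, 1.13 and 1.45 in deleted replicates 1 to 4. Fosl2 per Fos was lower in all 4 deleted libraries, and Fosl2 remained the more abundant of the pair. That direction follows from the fall of Fosl2 and the rise of Fos given above and is not a separate result. Junb per Jun was 0.0579 to 0.0725 in wild-type and 0.0483 to 0.0583 in deleted libraries, which overlap. Fosb per Fos overlapped too, at 0.0326 to 0.150 and 0.0402 to 0.0652. These ratios were chosen with the members' changes known and were not tested.

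**Figure D3:**
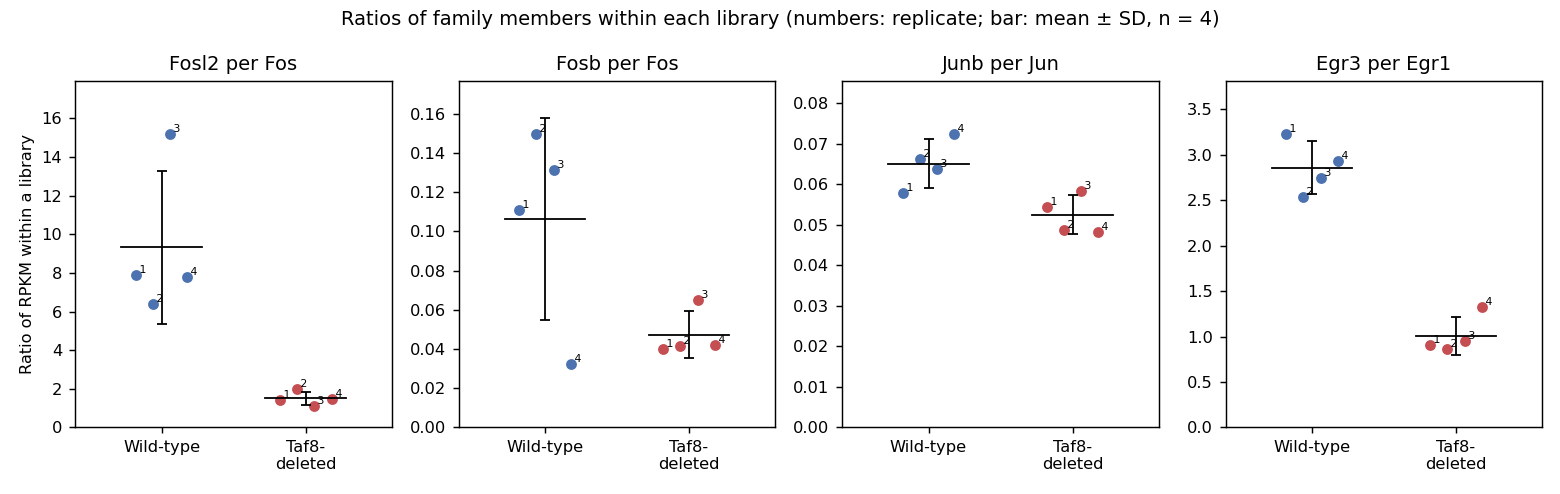
Ratio of RPKM between family members in each of the 4 wild-type (blue) and 4 Taf8-deleted (red) libraries, with replicate numbers and mean ± SD. Fosl2 per Fos and Egr3 per Egr1 were lower in all 4 deleted libraries, and Fosb per Fos and Junb per Jun overlapped.

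Egr1 (chromosome 18, 34861207 to 34864956), a zinc finger activator and a standard marker of neuronal activity, rose most among the members. Its level was 1.49, 1.77, 1.66 and 1.58 CPM in wild-type replicates 1 to 4. In deleted replicates 1 to 4 it was 6.14, 6.88, 6.99 and 4.77 CPM. The groups lay far apart, with deleted replicate 4 the lowest of its group and still above every wild-type library. The log2 fold change was 1.92 (SE 0.14, adjusted p = 1.6e-06 by edgeR). Wild-type libraries held 45 to 106 Egr1 counts and deleted libraries 187 to 253.

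Egr3 (chromosome 14, 70077317 to 70082613), an EGR relative that recognises the same kind of site, rose less. Its level was 2.22, 2.07, 2.10 and 2.13 CPM in wild-type replicates 1 to 4 and 2.56, 2.73, 3.07 and 2.91 CPM in deleted replicates 1 to 4. The groups did not overlap, and the log2 fold change was 0.40 (SE 0.11, adjusted p = 0.010 by edgeR). Of all members called, Egr3 was nearest the threshold. Its call was lost without wild-type replicate 3 and deleted replicate 4 together (log2 fold change 0.36, adjusted p = 0.0545). Egr3 per Egr1, in RPKM, was 2.54 to 3.23 in wild-type and 0.860 to 1.32 in deleted libraries. Egr3 was the more abundant of the pair in all wild-type libraries, while their RPKM ranges overlapped in deleted cortex (1.55 to 2.28 for Egr1 and 1.81 to 2.17 for Egr3). The counting tool used a length of 1416 bases for Egr3, so its RPKM describes that part of the gene.

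Arc (chromosome 15, 74669081 to 74672570) encodes a synaptic protein that takes part in the removal of glutamate receptors. Its level was 9.99, 9.54, 8.10 and 8.78 CPM in wild-type replicates 1 to 4 and 19.73, 20.25, 19.67 and 15.68 CPM in deleted replicates 1 to 4. Every deleted library lay above every wild-type library, with deleted replicate 4 apart from the other deleted libraries. The fitted log2 fold change was 1.05 (SE 0.10, adjusted p = 7.94e-06 by edgeR).

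Ier2 (chromosome 8, 84661331 to 84662852), a nuclear protein gene named for its early response, had the same lowest library in each group as Arc. It was at 30.1, 29.7, 21.8 and 27.5 CPM in wild-type replicates 1 to 4. In deleted replicates 1 to 4 it was at 56.8, 58.5, 57.4 and 48.3 CPM. Wild-type replicate 3 and deleted replicate 4 were the lowest of their groups for both Arc and Ier2, and the groups did not overlap. The log2 fold change of Ier2 was 1.02 (SE 0.10, adjusted p = 1.11e-05 by edgeR).

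Dusp1 (chromosome 17, 26505591 to 26508472), a phosphatase that inactivates MAP kinases, changed least among the members called. It was at 41.7, 44.8, 38.9 and 41.3 CPM in wild-type replicates 1 to 4 and at 48.6, 52.3, 49.6 and 50.1 CPM in deleted replicates 1 to 4. The groups did not overlap. The log2 fold change was 0.27 (SE 0.05, adjusted p = 0.000915 by edgeR). Its call was lost when the change had to exceed 1.2-fold (adjusted p = 0.474), as was that of Egr3 (adjusted p = 0.118).

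In wild-type cortex the order of the members by RPKM was Jun (44.7), Dusp1 (21.5), Ier2 (17.9), Fosl2 (3.40), Arc (2.98), Junb (2.91), Egr3 (1.503), Egr1 (0.529), Fos (0.387) and Fosb (0.0403). The ranges of Fosl2, Arc and Junb overlapped, so their order is not resolved. In deleted cortex it was Jun (64.2), Ier2 (36.3), Dusp1 (25.8), Arc (6.16), Junb (3.36), Egr1 (2.02), Egr3 (1.99), Fosl2 (1.14), Fos (0.778) and Fosb (0.0375). Ier2 lay below Dusp1 in all wild-type libraries and above it in all deleted libraries, and Fosl2 moved from the level of Arc to below Egr1.

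No order of libraries was common to all members, but some libraries were often at an end of their group. Wild-type replicate 3 was the lowest wild-type library for 6 of the 10 members (Fos, Jun, Junb, Arc, Ier2 and Dusp1) and the highest for Fosl2. Deleted replicate 4 was the lowest deleted library for 5 members (Fosl2, Junb, Egr1, Arc and Ier2) and the highest for none. Left out in turn, neither library nor any of the other 6 changed a member's call. Spread between libraries of a group, as edgeR's biological coefficient of variation, ran from 5.34% for Dusp1 to 16.7% for Fos among tested members, and its median over all genes tested was 7.65%.

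Markers of other cell types were set beside all genes tested, of which 29.5% were called as higher and 29.6% as lower. Each list is short, and none was tested against these shares. All 8 endothelial and all 5 pericyte markers rose, and their summed level was 227 to 236 CPM in wild-type and 274 to 344 CPM in deleted libraries. Meningeal fibroblast markers rose in 4 of 7, with summed levels of 14.6 to 34.2 CPM in wild-type and 18.1 to 128 CPM in deleted libraries. Deleted replicate 4 was the lowest deleted library for both sums. Microglia markers rose in 4 of 8 and fell in 1, at 43.5 to 50.5 CPM in wild-type and 47.9 to 62.3 CPM in deleted libraries. Choroid plexus markers rose in 1 of 5, at 15.3 to 403 and 13.9 to 1204 CPM, and red blood cell markers rose in 2 of 3, at 48.9 to 61.2 and 58.5 to 85.4 CPM. No marker of these lists was at 0 in any library.

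Markers of cells of the cortex were set beside the same shares of all genes tested, 29.5% higher and 29.6% lower. Cortical excitatory neuron markers fell in 7 of 8 (3946 to 4146 CPM in wild-type and 2995 to 3412 CPM in deleted libraries), and interneuron markers fell in 4 of 4 (668 to 773 and 519 to 536 CPM). Radial glia markers rose in 4 of 6 and fell in 1 (1719 to 2003 and 2700 to 3023 CPM). In whole tissue, fewer cells of a type and less RNA per cell cannot be told apart.

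With the meningeal level as a covariate, 7 members were called as higher and 1 as lower by edgeR, with Egr3 at an adjusted p of 0.0498. With the endothelial and pericyte level as a covariate, only Egr1 (log2 fold change 1.19, adjusted p = 0.0169) and Fosl2 (-1.53, adjusted p = 0.0328) were called among the members, and 12.6% of all genes were. The other members that had risen kept a positive value with a larger SE. Jun was at 0.50 (SE 0.18), Egr3 at 0.35 (SE 0.29) and Dusp1 at 0.23 (SE 0.13), close to their values without the covariate. Ier2 was at 0.66 (SE 0.23), Arc at 0.62 (SE 0.22) and Fos at 0.61 (SE 0.48), further below theirs. That level did not overlap between the groups, so this level and genotype cannot be told apart. The part of the other marker lists in the members' changes was not tested.

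**Figure D4:**
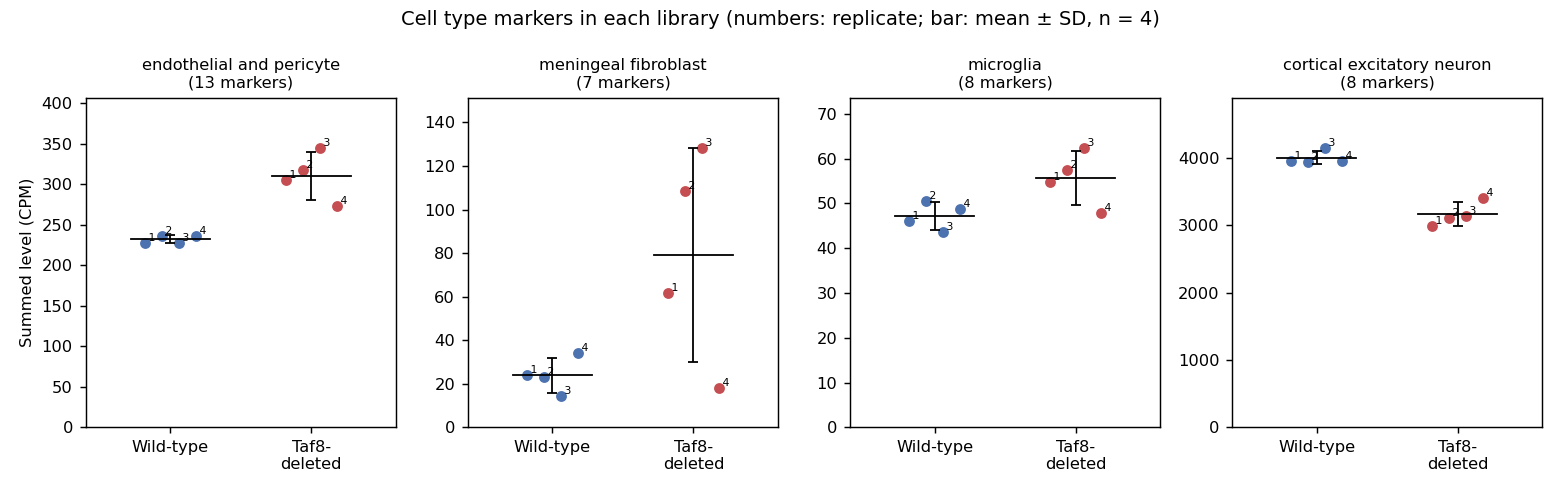
Summed level in CPM of the markers of 4 cell types in each library, with replicate numbers and mean ± SD. Endothelial and pericyte markers were higher and neuron markers lower in all 4 deleted libraries, and the meningeal sum of deleted replicate 4 fell inside the wild-type range.

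Related genes outside the members did not move in 1 direction. Neither did all genes tested, of which 29.5% were called as higher and 29.6% as lower. The 9 tested AP-1 partners held 3 that rose, 1 that fell and 5 short of the threshold, with a median log2 fold change of 0.15. Jund, the most abundant Jun family gene, rose from 245 ± 25.4 to 406 ± 31.5 CPM (SD, n = 4), and the stress-response factor gene Atf3 rose from 0.591 ± 0.143 to 1.48 ± 0.215 CPM. Atf7, a CRE-binding relative, fell by 0.86 on the log2 scale. Fosl1, Batf and Batf2 did not pass the filter.

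Other immediate early transcription factor genes rose in 4 of 12 and fell in 4, with a median of 0.04. Of all genes tested, 29.5% rose and 29.6% fell. Myc, which drives cell growth, rose 1.31-fold. The repressor gene Nfil3 fell from 34.9 ± 2.1 to 23.3 ± 1.75 CPM (SD, n = 4), and the nuclear receptor gene Nr4a3 fell by 0.72 on the log2 scale. The neuron-specific activity gene Npas4, singled out after its values were seen, rose 2.09-fold, from 1.39 ± 0.337 to 2.93 ± 0.311 CPM. Egr2 and Egr4 did not pass the filter.

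Immediate early genes for effector proteins rose in 9 of 20 and fell in 4, with a median of 0.13, beside 29.5% and 29.6% of all genes tested. The secreted matrix protein gene Ccn1 rose 2.00-fold and Gadd45g, a growth arrest gene, 1.62-fold. Sik1, a kinase that restrains CREB coactivators, fell by 0.43 on the log2 scale. Gadd45b, also singled out after its values were seen, rose 2.96-fold, from 2.41 ± 0.53 to 7.21 ± 1.86 CPM (SD, n = 4), with deleted replicate 4 again the lowest deleted library at 4.47 CPM. With the endothelial and pericyte level as a covariate the log2 fold change of Gadd45b was 0.27 (adjusted p = 0.698 by edgeR). In that fit 12.6% of all genes were called. The covariate did not overlap between the groups, so it cannot be told apart from genotype.

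Genes for the factors bound at immediate early promoters rose in 4 of 17 and fell in 4, with a median of 0.01. The shares over all genes tested were 29.5% and 29.6%. The SRF partner gene Elk1 fell from 73.4 ± 1.88 to 48.9 ± 3.36 CPM (SD, n = 4), and the CREB coactivator gene Crtc3 fell by 0.49 on the log2 scale. Crem, a CREB relative, rose 1.73-fold. Srf itself, also singled out after its values were seen, was at 60.1 ± 3.84 and 62.5 ± 2.85 CPM (SD, n = 4), a log2 fold change of 0.06 that did not pass the test (adjusted p = 0.38 by edgeR).

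Upstream kinase genes held more falls than rises in all 3 lists, beside 29.6% lower and 29.5% higher among all genes tested. In the ERK cascade 8 of 15 fell and 2 rose (median -0.23), including Mapk3, which encodes ERK1 and fell from 112 ± 4.54 to 76.3 ± 6.36 CPM (SD, n = 4). Rps6ka5 and Rps6ka2, kinases downstream of ERK, fell by 0.69 and 0.34 on the log2 scale.

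In the JNK and p38 cascades 5 of 12 fell and 2 rose (median -0.13). Map2k6, which activates p38, fell by 0.92 and Map2k7, which activates JNK, by 0.74 on the log2 scale, while Mapk14, a p38 kinase gene, rose 1.21-fold. Among genes of calcium signalling 8 of 14 fell and 1 rose (median -0.20). The kinase genes Camkk2 and Camk1 fell by 0.54 and 0.48 on the log2 scale.

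Genes that restrain the response went both ways, as did all genes tested (29.5% called as higher and 29.6% as lower). MAP kinase phosphatases and Sprouty family inhibitors rose in 5 of 15 and fell in 4 (median -0.01), with Dusp4 1.45-fold and Dusp16 1.21-fold higher and Spred2 lower by a log2 fold change of -0.49. Among EGR corepressors and proteins that bind AU-rich elements of short-lived mRNAs, 5 of 9 fell and 1 rose (median -0.17). Nab1, a corepressor of EGR proteins, fell from 52.0 ± 7.12 to 29.1 ± 2.4 CPM (SD, n = 4), and the RNA-binding protein gene Hnrnpd fell by 0.48 on the log2 scale. The riser was Zfp36l1, which promotes decay of AU-rich mRNAs, at 1.79-fold. In each of these lists the share called was 44.4% to 66.7%, beside 59.2% of all genes tested.

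**Figure D5:**
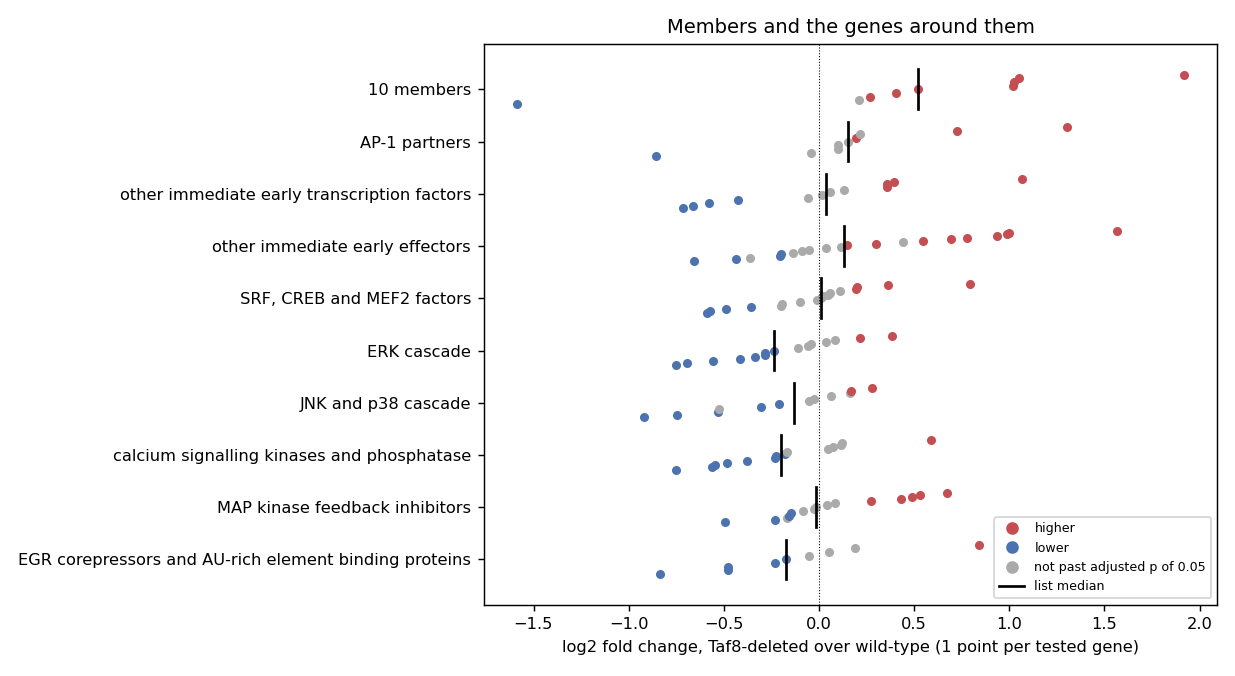
Log2 fold change of each tested gene (1 point) in the 10 members and 9 lists of related genes, coloured by call, with the list median as a black line. The members' median of 0.52 lies right of the list medians, which run from -0.23 to 0.15, and every list holds genes that rose and genes that fell. Members and lists were chosen with earlier results of these data known, so this difference is not a test.

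For 4 members the genes with the most similar profile over the 8 libraries were taken, by the root mean square difference of mean-centred log2 CPM among 11163 named genes with a mean of at least 5 CPM. Nearest to Fos were Abcc4 (difference 0.14), Rras (0.15) and Ccpg1os (0.16). Nearest to Egr1 were the neuropeptide precursor gene Vgf (0.15), the triglyceride synthesis gene Dgat2 (0.15) and Tcte2 (0.16). Nearest to Arc were Dnph1 (0.08), the adaptor gene Ajuba (0.09) and the kinase gene Mknk2 (0.09). Nearest to Fosl2 were Sh3bgrl2 (0.15), Pik3ip1 (0.16) and Hspa12a (0.16). None of these genes is in the lists above. All 12 were called by edgeR in the direction of their member. Because they were chosen by profile over both groups, that direction was largely fixed by the choice and is not a separate result.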

How the data were processed

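Polyadenylated RNA was sequenced in 8 stranded libraries, 4 per genotype, grouped by the labels. The authors deposited raw read counts for Entrez genes, made with Subread 1.5.0 and featureCounts on mm10, per the submitters' processing notes. The sources used here do not state the annotation, the strand setting or the treatment of multiply mapped reads, so antisense and overlapping genes are uncertain. The matrix and the single-sample files differed in 0 values. Symbols, coordinates and upstream sequences came from RefSeq tables of GRCm38.p6, the sequence of mm10, and 25275 genes had a symbol.

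Tests used edgeR 4.0.16 (R 4.3.3) after filterByExpr and TMM scaling, with group as the term, and p-values were adjusted over all genes tested. CPM and RPKM use TMM-scaled library sizes and the deposited gene length. Each standard error is the absolute log2 change over the root of its F statistic. The steps were tested on simulated counts. Nothing says that embryos came from separate litters, so p-values set the group difference against the spread between these libraries only. The first parts of the animal numbers all differ among deleted embryos (456.1, 472.1, 477.1 and 486.1), unlike in wild-type. If they mark litters, the spread may be unlike between groups.

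The 10 members and the lists of related genes and markers were chosen with earlier results of these data known. Each list names up to 3 genes with the smallest adjusted p (1 such gene is not reported here), and genes like Fos, Egr1, Arc and Fosl2 were taken by profile. Alternatives were other scalings and filters, DESeq2 1.42.0, limma 3.58.1 voom, a replicate block, marker covariates, each library left out, a 1.2-fold test and a threshold of 0.01. Fits without 2 libraries were added after seeing the data.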

Additional observations from a re-analysis of the deposited data

Results flagged for a closer look

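A library far from the others of its group was seen in 6 of 108 sets of 4 libraries examined, where the gap to the nearest library exceeded Dixon's 95% critical value as a share of the whole range. Chance alone would give about 1 in 20. Among the members, Arc in deleted replicate 4 was lowest, at 15.7 CPM, and Ier2 in the same library was lowest, at 48.3 CPM. Among related genes, Jund in wild-type replicate 3 was lowest, at 207 CPM, and Rps6ka5 in that library was highest, at 41.9 CPM. Srf in deleted replicate 2 was highest, at 66.8 CPM, and Hspa12a in deleted replicate 3 was highest, at 39.6 CPM.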

How the results depend on the processing

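The counts of 7 members higher and 1 lower were the same under each other scaling and filter, DESeq2, voom with and without quality weights, the meningeal covariate, the single-sample files and each library left out. Without 1 library the count across the table was 8404 to 9450 genes, beside 9257 with all. With the replicate block, 7 members were higher, 1 was lower and 8285 genes were called. The numbers did not pair the samples: same-numbered libraries had correlations of deviations of -0.46 to 0.01. With the endothelial and pericyte covariate 1 member was higher, 1 was lower and 1976 genes were called, and the cause was not tested. The test against 1.2-fold called 4635 genes and 5 members as higher, since it asks for a larger change, and a threshold of 0.01 left 6 members higher. Without wild-type replicate 3 and deleted replicate 4 together 6 members were higher. Junb turned negative with the endothelial and pericyte covariate (-0.16), as did Srf (-0.0096), which also did with the meningeal covariate (-0.00068). Their values did not pass the test in any of these fits, and the cause was not tested. Depth limits Fosb and, to a lesser degree, Fos.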

Other observations

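Deleted replicate 4 was also the lowest deleted library for some genes outside the members. Gadd45b had 7.67, 8.47, 8.23 and 4.47 CPM in deleted replicates 1 to 4 and 1.76, 2.82, 2.21 and 2.86 CPM in wild-type replicates 1 to 4. Ccn1 was at 42.0, 47.2, 44.1 and 40.0 CPM in deleted replicates 1 to 4. For Npas4 deleted replicate 4 was instead the highest deleted library at 3.25 CPM.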
